A study of Homo sapiens with 6 samples.

Results

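The genes described here were 48 human genes that are known as targets or partners of the transcription factor ATF4, together with the cytosolic aminoacyl-tRNA synthetases among them. They were taken by name from the 58884 genes listed for each library and selected on having at least 10 estimated counts in at least 3 of the 6 libraries, which all 48 met. The lowest of them, CTH, had 28 to 64 counts per library, and no listed gene fell outside the limit. The labels name the cells used for RNA-seq T0519, whereas the paper's text places this experiment in AC16. In the paper, AC16 and T0519 are separate immortalized lines of ventricular cardiomyocytes of human origin. Which line was sequenced cannot be told from these sources. The NC group consisted of 3 libraries of cells given negative control siRNA (NC_1, NC_2 and NC_3) and the SiCIRBP group of 3 libraries of cells given siRNA against CIRBP, a cold-inducible RNA-binding protein (SiCIRBP_1, SiCIRBP_2 and SiCIRBP_3). The paper set aside NC_1 and SiCIRBP_2 as discrepant and tested the other 4 libraries, so each comparison below is given over these 4 libraries and over all 6. The labels do not say that the libraries came from separate cultures, and the p-values measure only the spread between libraries, which may be technical.

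ATF4 is the effector of the integrated stress response. When a kinase such as GCN2 (amino acid shortage), PERK (unfolded protein in the endoplasmic reticulum), PKR (double-stranded RNA) or HRI (heme shortage) phosphorylates the initiation factor eIF2, general translation falls while ATF4 mRNA is translated more. ATF4 then binds composite C/EBP-ATF elements with partners such as C/EBP proteins and raises genes for amino acid synthesis, amino acid uptake and tRNA charging, along with regulators that end or redirect the response. Because ATF4 is set largely at translation, its mRNA level is not a measure of its activity.

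Each gene's level is given as a normalized count (CPM, the estimated count scaled to a common library size after TMM normalization), and genes are compared with each other only in TPM, which takes transcript length into account. Total estimated counts lay between 25726259 and 29919566 per library. CIRBP, the targeted gene, was at 85.8 to 91.0 CPM in the NC libraries. It was at 54.8, 24.3 and 46.3 CPM in SiCIRBP_1, SiCIRBP_2 and SiCIRBP_3, with the lowest value in SiCIRBP_2. Its log2 fold change was -0.81 (SE 0.11, edgeR adjusted p = 0.00828) over the 4 libraries and -1.07 (SE 0.26, edgeR adjusted p = 0.103) over 6. SiCIRBP_2 stood apart from the other 5 libraries in interferon-stimulated genes, as the 25 such genes listed summed to 6840 CPM there. The sum was 733 to 754 CPM in the NC libraries, 414 CPM in SiCIRBP_1 and 1310 CPM in SiCIRBP_3, so that these 2 SiCIRBP libraries differed as well. The contractile and other markers of cardiomyocytes were nearly absent, as 8 of 11 were under 1 CPM in every library and MYH6, MYL2 and RYR2 were at 0 counts throughout. Their sum was 18.5 to 30.9 CPM, led by ACTN2 and NKX2-5. Fibroblast markers summed to 2180 to 6060 CPM, with COL1A1 at 1630 to 5230 CPM and LUM at 0 counts, and the part of this difference in the results below was not tested. Endothelial markers summed to 35.3 to 54.5 CPM and macrophage markers to 9.35 to 15.2 CPM, with PECAM1 at no more than 0.14 CPM and PTPRC at no more than 0.178 CPM.

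The sequence that ATF4 and its C/EBP partners share was searched in the promoters, since it is the feature by which these genes are commonly grouped. The letters TGATGNAA, or TTNCATCA when the element lies on the other strand, were looked for in the 250 bases before each start site in the RefSeq promoters of GRCh38.p14. Of the 48 genes, 38 matched a promoter entry and 8 of these held the letters (21.1%), against 3.89% of all 27305 genes with an entry. With the longer letters TGATGNAAT or TGATGNAAC, 6 of the 38 genes (15.8%) and 1.91% of all genes held a match. Capitals mark the match in the 30-base stretches, each written 5′ to 3′ on the strand of its gene.
ASNS, chr7:97872458-97872487, minus strand: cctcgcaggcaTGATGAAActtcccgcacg
CEBPG, chr19:33374060-33374089, plus strand: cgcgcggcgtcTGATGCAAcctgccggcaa
SLC1A5, chr19:46784893-46784922, minus strand: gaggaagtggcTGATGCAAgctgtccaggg
ATF3, chr1:212565205-212565234, plus strand: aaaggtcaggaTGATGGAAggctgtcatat
AARS, chr16:70289675-70289704, minus strand: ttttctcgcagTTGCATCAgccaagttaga
CHAC1, chr15:40953251-40953280, plus strand: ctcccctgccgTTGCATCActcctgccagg
IARS, chr9:92293698-92293727, minus strand: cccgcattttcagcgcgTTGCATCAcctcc
GARS, chr7:30594834-30594863, plus strand: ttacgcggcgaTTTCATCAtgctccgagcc
By role, the match was found in 2 of 7 regulators, 1 of 7 stress effectors, 1 of 6 enzymes, 1 of 7 transporters and 3 of 11 genes of the synthetase group. A match describes the letters in this window and says nothing of binding in these cells.

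Over NC_2, NC_3, SiCIRBP_1 and SiCIRBP_3, 14 of the 48 genes were downregulated in the SiCIRBP group and 1, ATF5, was upregulated, as called by edgeR's quasi-likelihood test at a Benjamini-Hochberg adjusted p-value under 0.05. The downregulated genes made up 29.2% of the 48, whereas 9.76% of all 15421 genes tested were downregulated and 9.62% upregulated. They were the regulators DDIT3, CEBPB, TRIB3, ATF3 and NUPR1, the stress effectors DDIT4, PPP1R15A and VLDLR, the enzymes SHMT2 and MTHFD2, the transporters SLC7A1, SLC7A11 and SLC3A2, and the synthetase AARS. In all, 42 of the 48 log2 fold changes were below 0, with a median of -0.31 against -0.00 over all genes tested. A change of at least 2-fold was reached by 2 downregulated genes, DDIT3 and CEBPB, and by ATF5, with 1.8% of all genes downregulated and 1.82% upregulated by this rule. In these bulk samples, fewer cells with a transcript and less of it per cell cannot be told apart. DESeq2 over the same 4 libraries called 15 of the 48 downregulated, against 10.4% of all genes. Of these 15, 11 were among the 14 called by edgeR. ATF3, DDIT4 and SLC7A1 were lost, and CEBPG, SLC38A2, IARS and XPOT were gained. The number of calls changed with each library, among the 48 as among all genes. With NC_3 left out, edgeR called none of the 48 (0.246% of all genes downregulated), and with NC_2 left out it called DDIT3 downregulated (0.613%). With SiCIRBP_1 or SiCIRBP_3 left out, it called 40 or 20 of the 48 downregulated, against 23.1% and 21.1% of all genes, when the lone library of a group is taken to vary like the other group. With NC_1 added, CEBPB was downregulated and ATF5 upregulated (3.63% of all genes downregulated), and with SiCIRBP_2 added none of the 48 was called (0.0837%).

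Over all 6 libraries, edgeR's quasi-likelihood test called none of the 48 genes in either direction (0.0% of all 15217 genes tested downregulated and 0.0% upregulated). An unadjusted p-value under 0.05 in this test was found in 11 of the 48 genes, and in 3603 of all 15217, a similar share. The median log2 fold change was -0.16, and 32 of the 48 were below 0. The sign differed from that over 4 libraries in 12 genes, 11 of them negative over 4 libraries and positive over 6 (ATF3, NUPR1, SESN2, ASNS, PHGDH, PCK2, GARS, SARS, TARS, WARS and YARS) and 1 the reverse (SLC7A5). DESeq2 over the same 6 libraries called DDIT4 and SLC7A1 downregulated and ATF5 upregulated, where 5.09% of all genes were called downregulated and 4.91% upregulated. The 3 SiCIRBP values lay below the 3 NC values without overlap in 5 of the 48 genes (10.4%), VLDLR, SHMT2, CTH, SLC7A1 and XPOT, against 16.6% of all genes. The nearest values of the groups were almost level in VLDLR (38.8 and 38.6 CPM) and SLC7A1 (310 and 309 CPM). In the low gene CTH they were 34 and 31 counts. Only ATF5 of the 48 lay without overlap above, against 16.2% of all genes. The share of the 48 genes that separated the groups over 6 libraries was thus not above that of all genes.

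**Figure D1:**
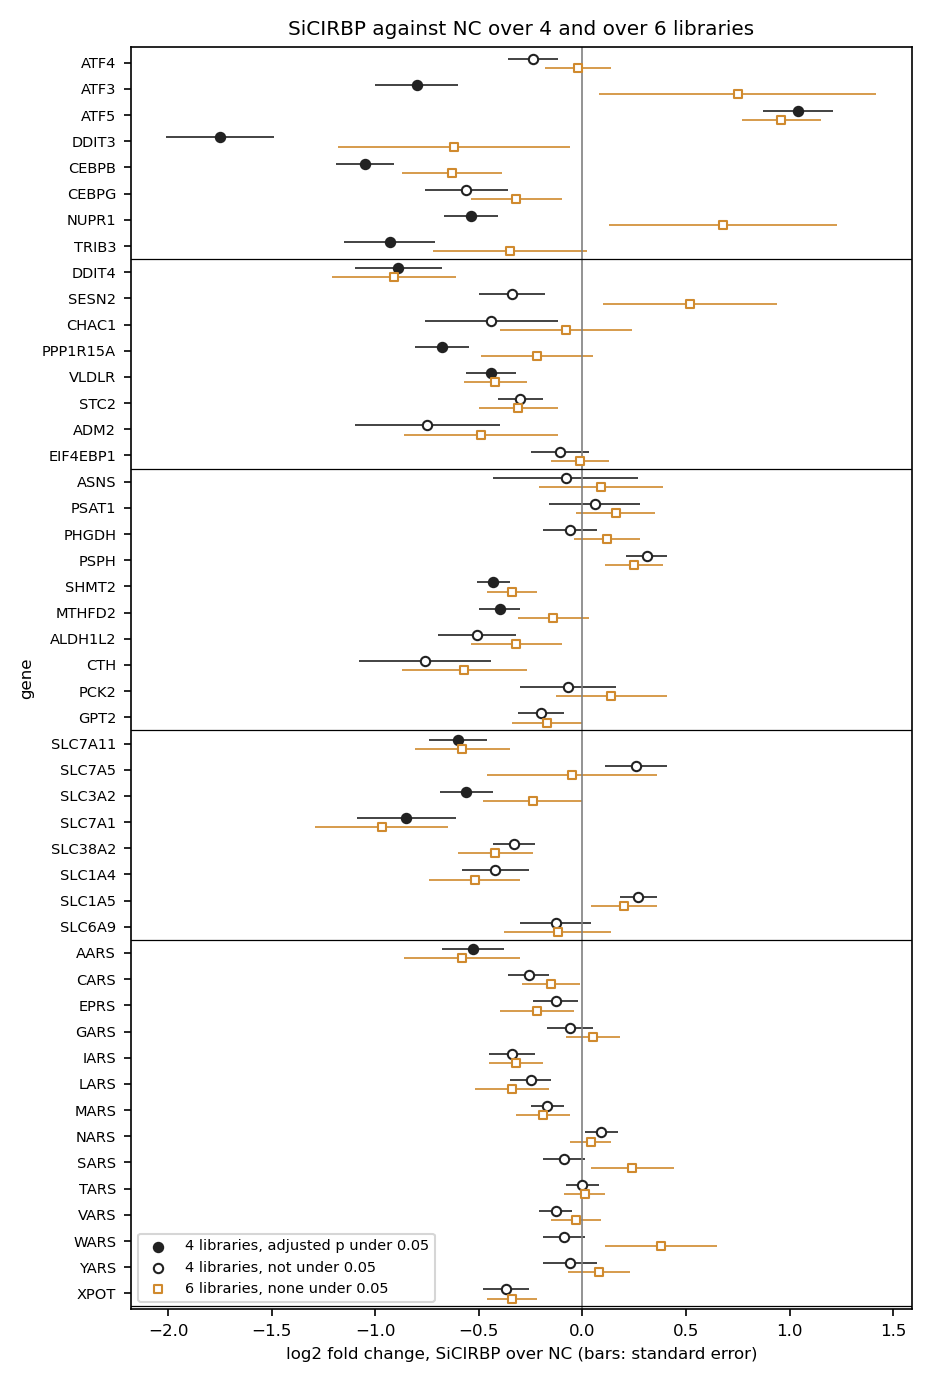
Log2 fold change of SiCIRBP over NC for the 48 genes, on the x axis, with standard errors as bars. Circles are the fit over 4 libraries (filled for an adjusted p-value under 0.05 in edgeR's quasi-likelihood test) and squares the fit over 6 libraries. Most circles lie left of 0, with DDIT3 at -1.75 farthest, and ATF5 alone is filled on the right. In 12 genes the square lies on the other side of 0 from the circle, ATF3, NUPR1 and SESN2 among them.

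The libraries within each group also differed in these genes. NC_1 was below both NC_2 and NC_3 in 44 of the 48 genes (91.7%), whereas it was so in 41.1% of all genes. The median log2 difference of NC_1 from the mean of NC_2 and NC_3 was -0.34 over the 48 genes and 0.00 over all genes. ATF5, PSPH and NARS were above both in NC_1, and TARS lay between them. SiCIRBP_1 was above SiCIRBP_3 in 41 of the 48 genes, against 50.2% of all genes, and by at least 1.5-fold in 9 of them, against 6.28% of all genes. These 9 were ASNS, ADM2, CHAC1, SLC7A1, PSAT1, DDIT4, CEBPG, PCK2 and DDIT3, whose log2 differences ranged from 1.24 in ASNS to 0.60 in DDIT3. Set against the mean of the 6 libraries, the median of the 48 genes was highest in NC_3 (0.26 on the log2 scale) and NC_2 (0.17), followed by SiCIRBP_1 (0.07), SiCIRBP_2 (0.01) and NC_1 (-0.16), and it was lowest in SiCIRBP_3 (-0.25). The comparison over 4 libraries and the position of NC_1 share NC_2 and NC_3, so that a high level in those 2 libraries enters both.

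**Figure D2:**
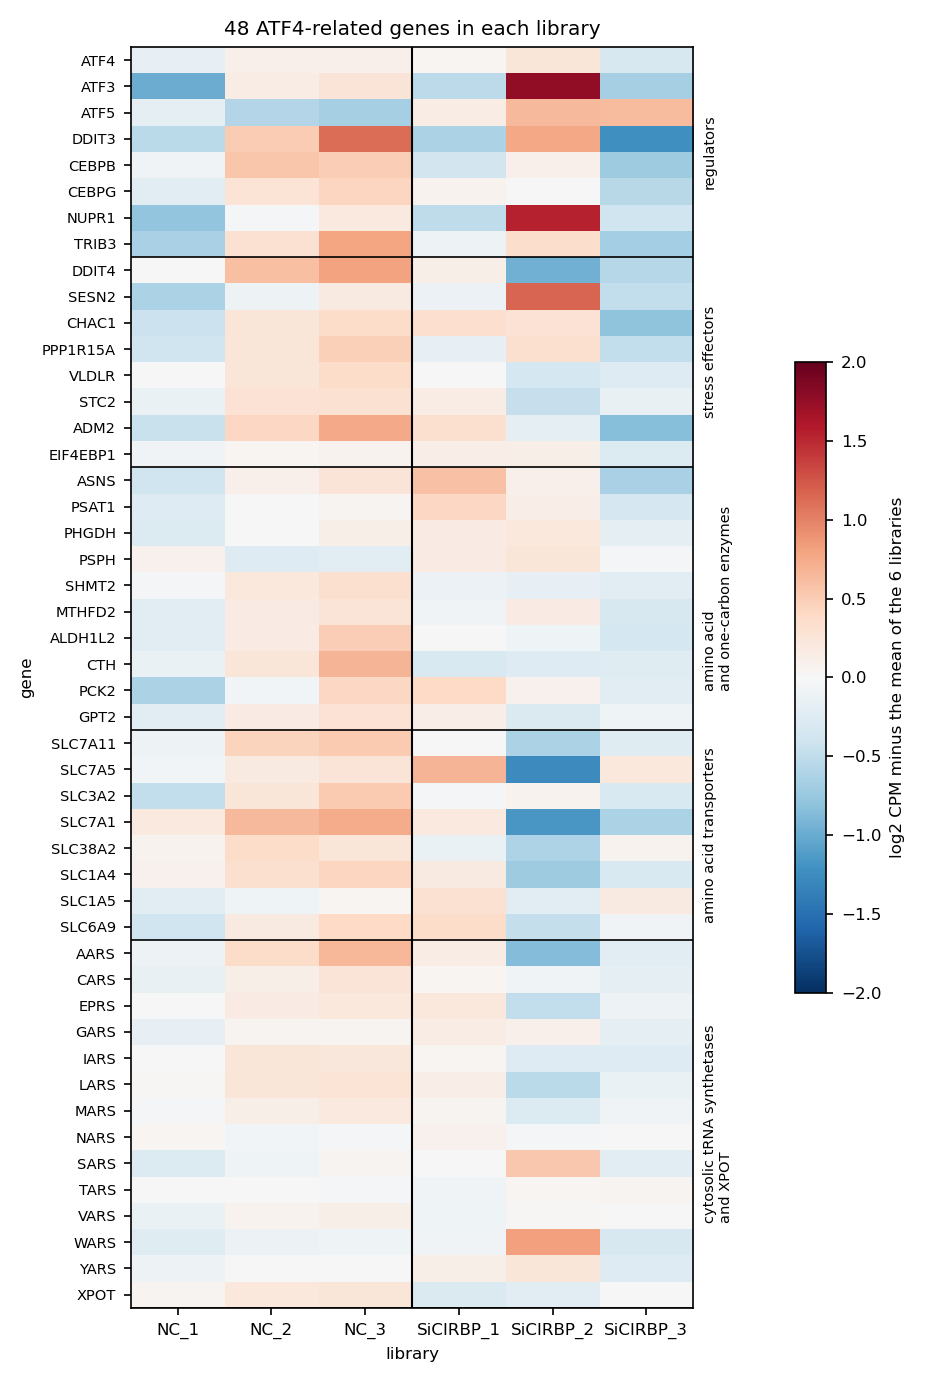
Heat map of the 48 genes (rows, grouped by role) in the 6 libraries (columns), as log2 CPM minus the mean of the 6 libraries, red above and blue below. NC_2 and NC_3 are mostly red and NC_1 and SiCIRBP_3 mostly blue. SiCIRBP_2 is red in most regulators and blue in most transporters.

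SiCIRBP_2 split the genes by role. It lay above both other SiCIRBP libraries in 7 of the 8 regulators, all but CEBPG, and in 17 of the 48 genes, against 40.1% of all genes. Among the 7, ATF5 was nearly level in SiCIRBP_2 and SiCIRBP_3 (65.7 and 65.0 CPM). Below both, SiCIRBP_2 lay in 7 of the 8 amino acid transporters, all but SLC3A2, and in 16 of the 48, against 42.2% of all genes. The median log2 difference of SiCIRBP_2 from the mean of SiCIRBP_1 and SiCIRBP_3 was 0.70 for the regulators, 0.13 for the stress effectors, 0.09 for the enzymes, -0.03 for the synthetase group and -0.60 for the transporters. The roles were set by what the genes do, but this split was noticed in these same values, and 1 library gives no measure of error. In SiCIRBP_2 all 25 interferon-stimulated genes were higher than in the NC libraries (median log2 difference 3.81). Set against the mean of the 6 libraries, their median was -1.61 in SiCIRBP_1 and 0.23 in SiCIRBP_3. That of the regulators was -0.23 and -0.61 in these 2 libraries, and that of the transporters 0.19 and -0.16. The part of the interferon-stimulated genes in these values was not tested.

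**Figure D3:**
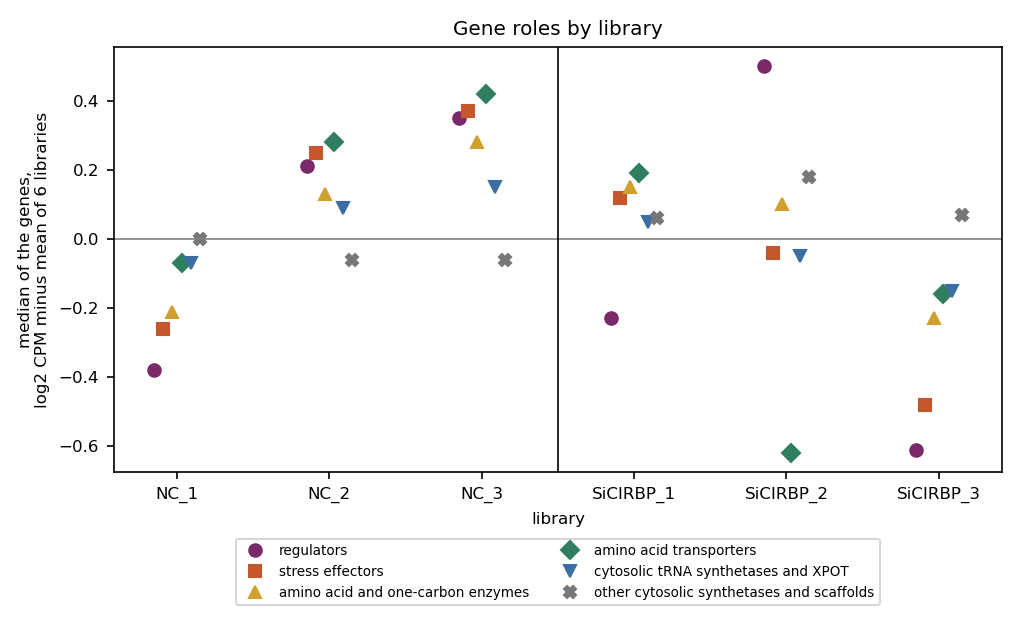
Median over the genes of each role, as log2 CPM minus the mean of the 6 libraries (y axis), in each library (x axis), with the cytosolic synthetases and scaffolds outside the 48 genes as crosses. Regulators are at 0.50 in SiCIRBP_2 and -0.61 in SiCIRBP_3, and transporters at -0.62 in SiCIRBP_2, while the crosses stay between -0.06 and 0.18.

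The regulators held 5 of the 14 downregulated genes and the upregulated ATF5. These were 62.5% and 12.5% of the regulators, against 9.76% and 9.62% of all genes. Their median log2 fold change was -0.68 over the 4 libraries and -0.17 over 6. ATF4 itself (ENSG00000128272, chromosome 22 of GRCh38 from 39519695 to 39522685, plus strand) had the highest level of the 48 genes, with a median of 685 TPM. It was at 559, 673 and 667 CPM in NC_1, NC_2 and NC_3 and at 639, 742 and 498 CPM in SiCIRBP_1, SiCIRBP_2 and SiCIRBP_3. The groups overlapped fully, with the highest value in SiCIRBP_2 and the lowest in SiCIRBP_3. The log2 fold change was -0.24 (SE 0.12, edgeR adjusted p = 0.209) over 4 libraries and -0.02 (SE 0.16, edgeR adjusted p = 0.962) over 6, and no change of ATF4 mRNA was called in either.

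DDIT3 encodes CHOP, the C/EBP family factor that is induced by ATF4 and linked to death of persistently stressed cells. It had 18.5, 38.4 and 58.8 CPM in NC_1, NC_2 and NC_3 and 17.4, 46.4 and 11.5 CPM in SiCIRBP_1, SiCIRBP_2 and SiCIRBP_3. NC_1 was level with SiCIRBP_1, and SiCIRBP_2 was above NC_2, so that the groups overlapped once those libraries were included. Over 4 libraries the log2 fold change was -1.75 (SE 0.26, edgeR adjusted p = 0.0103), the largest fall of the 48 genes, from 48.6 ± 14.4 CPM (SD, n = 2) to 14.4 ± 4.17 CPM (SD, n = 2). Over 6 libraries it was -0.62 (SE 0.56, edgeR adjusted p = 0.505). DDIT3 (ENSG00000175197) lies on chromosome 12 from 57516588 to 57521737 on the minus strand, and 355 of its exon bases (27.2%) are also exon of MARS on the plus strand. Whether the counting used strand is not stated, so reads in the shared stretch cannot be assigned with certainty, and MARS, at 201 to 278 CPM, had a log2 fold change of -0.17 (edgeR adjusted p = 0.2).

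TRIB3, a pseudokinase that is raised by ATF4 and CHOP and restrains ATF4, and ATF3, a stress-induced factor of the same family as ATF4, resembled DDIT3 in the place of NC_1 and SiCIRBP_2. TRIB3 was at 35.6, 69.4 and 96.6 CPM in NC_1, NC_2 and NC_3 and at 52.1, 71.3 and 34.8 CPM in SiCIRBP_1, SiCIRBP_2 and SiCIRBP_3. ATF3, low throughout, was at 2.38, 5.28 and 5.67 CPM in the NC libraries and at 3.29, 16.3 and 2.99 CPM in the SiCIRBP libraries, in the same order. In both genes NC_1 was near the lowest SiCIRBP value, and in ATF3 the value of SiCIRBP_2 was above all others. The log2 fold change of TRIB3 was -0.93 (SE 0.22, edgeR adjusted p = 0.033) over 4 libraries and -0.35 (SE 0.37, edgeR adjusted p = 0.578) over 6. For ATF3 it was -0.80 (SE 0.20, edgeR adjusted p = 0.0374, DESeq2 adjusted p = 0.0538) over 4 libraries and turned to 0.75 (SE 0.67, edgeR adjusted p = 0.501) over 6. NUPR1, a small chromatin-associated stress protein named here after its values were seen, was likewise highest in SiCIRBP_2, with 51.7 CPM against 10.3 to 20.4 CPM in the other 5 libraries. It was downregulated over 4 libraries (log2 fold change -0.54, edgeR adjusted p = 0.0363) and at 0.68 over 6.

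CEBPB and CEBPG encode C/EBP proteins that pair with ATF4. CEBPB was at 37.0, 56.8 and 54.3 CPM in NC_1, NC_2 and NC_3 and at 30.1, 41.8 and 23.6 CPM in SiCIRBP_1, SiCIRBP_2 and SiCIRBP_3. The groups overlapped only through SiCIRBP_2, which was above NC_1. Its log2 fold change was -1.05 (SE 0.14, edgeR adjusted p = 0.00766) over 4 libraries, the smallest adjusted p-value of the 48 genes, and -0.63 (SE 0.24, edgeR adjusted p = 0.173) over 6. CEBPG, with a log2 fold change of -0.56 (SE 0.20, edgeR adjusted p = 0.092) over 4 libraries, was not called by edgeR.

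ATF5, a relative of ATF4 whose mRNA is likewise translated under stress, went the other way. It was at 36.9, 28.0 and 26.3 CPM in NC_1, NC_2 and NC_3 and at 46.5, 65.7 and 65.0 CPM in SiCIRBP_1, SiCIRBP_2 and SiCIRBP_3. Every SiCIRBP library was above every NC library, and NC_1 was the highest of the NC group. This was a log2 fold change of 1.04 (SE 0.17, edgeR adjusted p = 0.0124) over 4 libraries and 0.96 (SE 0.19, edgeR adjusted p = 0.0885, DESeq2 adjusted p = 0.000613) over 6. On the log2(TPM + 1) scale, which divides by the transcript length assigned in each library, the change over 4 libraries was 0.72 and limma did not call it (adjusted p = 0.062). The median of all genes on this scale was -0.078, and the assigned length of ATF5 was longer by 0.17 (log2) in the SiCIRBP libraries. The part of each in the lower value was not tested. ATF5 (ENSG00000169136, chromosome 19 from 49928702 to 49933935, plus strand) shares 626 exon bases (21.2%) with NUP62, a nuclear pore gene on the opposite strand. NUP62 was also upregulated over the 4 libraries, with a log2 fold change of 0.38 (SE 0.08, edgeR adjusted p = 0.0207), at 128 to 146 CPM in the NC and 162 to 170 CPM in the SiCIRBP libraries, and its part in the value of ATF5 was not tested.

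**Figure D4:**
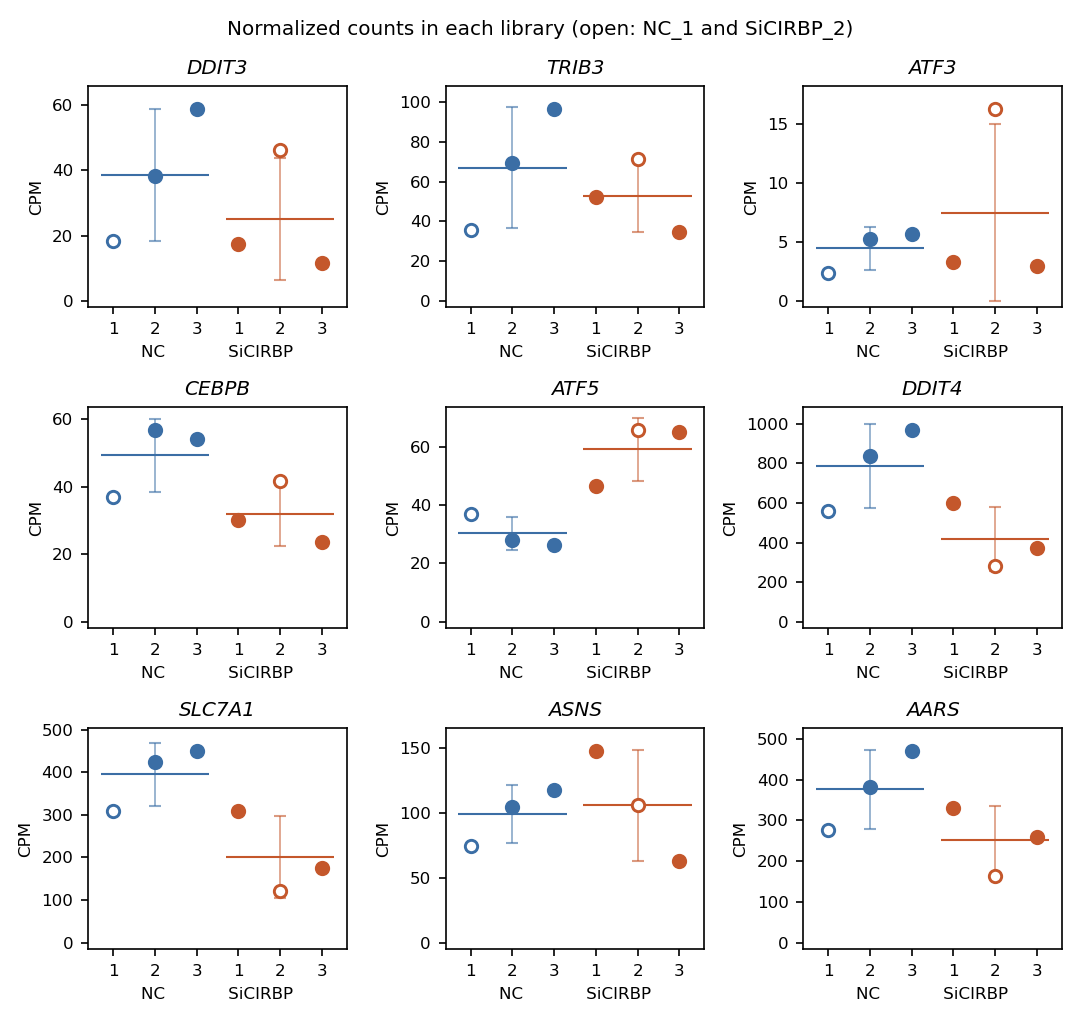
Normalized counts (CPM, y axis) of 9 genes in each library (x axis, replicate number within NC in blue and SiCIRBP in orange), with lines and bars at the mean ± SD of the 3 libraries of each group and open circles for NC_1 and SiCIRBP_2. In DDIT3, TRIB3 and ATF3 the open NC circle is low and the open SiCIRBP circle high. In ATF5 and SLC7A1 the groups do not overlap, although NC_1 and SiCIRBP_1 are nearly level in SLC7A1. In ASNS the highest and the lowest circle are both SiCIRBP.

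Of the 8 stress effectors, which carry out or limit the response, 3 were downregulated over 4 libraries, against 9.76% of all genes. All 8 had a log2 fold change below 0 (median -0.44). DDIT4 encodes REDD1, an inhibitor of mTORC1, and was abundant, with a median of 545 TPM. It was at 557, 835 and 968 CPM in NC_1, NC_2 and NC_3 and at 598, 284 and 373 CPM in SiCIRBP_1, SiCIRBP_2 and SiCIRBP_3. The groups overlapped only in that SiCIRBP_1 was above NC_1. DDIT4 had a log2 fold change of -0.89 (SE 0.21, edgeR adjusted p = 0.0311, DESeq2 adjusted p = 0.0502) over 4 libraries and -0.91 (SE 0.30, edgeR adjusted p = 0.139, DESeq2 adjusted p = 0.0308) over 6. Unlike DDIT3 and ATF3, DDIT4 was lowest in SiCIRBP_2. That library had both the least CIRBP mRNA and the highest sum of interferon-stimulated genes, and the part of either in this value was not tested.

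PPP1R15A encodes GADD34, which brings phosphatase to eIF2 and ends the response. It was at 104, 162 and 190 CPM in NC_1, NC_2 and NC_3 and at 122, 171 and 97.7 CPM in SiCIRBP_1, SiCIRBP_2 and SiCIRBP_3. NC_1 lay between the SiCIRBP libraries, and SiCIRBP_2 between NC_2 and NC_3. Its log2 fold change was -0.68 (SE 0.13, edgeR adjusted p = 0.0197) over 4 libraries and -0.22 (SE 0.27, edgeR adjusted p = 0.624) over 6. VLDLR, a lipoprotein receptor raised by ATF4 in stressed cells, was at 38.8 to 50.3 CPM in the NC libraries and at 30.3 to 38.6 CPM in the SiCIRBP libraries. These groups did not overlap, with NC_1 and SiCIRBP_1 nearest each other, and the log2 fold change was -0.44 (SE 0.12, edgeR adjusted p = 0.0475) over 4 libraries and -0.42 (SE 0.15, edgeR adjusted p = 0.163) over 6.

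SESN2 encodes a leucine sensor that restrains mTORC1, and CHAC1 a glutathione-degrading enzyme that is a classical target of ATF4. SESN2 was at 20.7, 30.2 and 36.4 CPM in NC_1, NC_2 and NC_3 and at 29.7, 72.2 and 23.0 CPM in SiCIRBP_1, SiCIRBP_2 and SiCIRBP_3. CHAC1 was at 22.5, 36.0 and 39.3 CPM in the NC libraries and at 38.2, 36.9 and 17.4 CPM in the SiCIRBP libraries, in the same order. SESN2 was highest in SiCIRBP_2, and CHAC1 was low in NC_1 and SiCIRBP_3. Neither was called over 4 libraries (log2 fold changes -0.34 and -0.44, edgeR adjusted p = 0.176 and 0.366), and SESN2 was at 0.52 over 6. STC2, a secreted glycoprotein, had a log2 fold change of -0.30 (edgeR adjusted p = 0.0946) over 4 libraries and was not called by edgeR.

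Among genes for the synthesis of amino acids and one-carbon units, 2 of 10 were downregulated over 4 libraries (against 9.76% of all genes) and none was upregulated, with a median log2 fold change of -0.14. The 2 were SHMT2 and MTHFD2, which carry the serine-derived one-carbon unit through the mitochondrial folate cycle. SHMT2 was at 359, 426 and 458 CPM in NC_1, NC_2 and NC_3 and at 338, 330 and 317 CPM in SiCIRBP_1, SiCIRBP_2 and SiCIRBP_3. MTHFD2 was at 289, 374 and 397 CPM in the NC libraries and at 318, 374 and 266 CPM in the SiCIRBP libraries, in the same order. SHMT2 did not overlap between groups and had little spread among the SiCIRBP libraries (329 ± 10.5 CPM, SD, n = 3), whereas MTHFD2 did overlap. The log2 fold change of SHMT2 was -0.43 (SE 0.08, edgeR adjusted p = 0.0178) over 4 libraries and -0.34 (SE 0.12, edgeR adjusted p = 0.164) over 6, and that of MTHFD2 was -0.40 (SE 0.10, edgeR adjusted p = 0.0407) and -0.14 (SE 0.17, edgeR adjusted p = 0.62).

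The serine synthesis enzymes PHGDH, PSAT1 and PSPH, and asparagine synthetase ASNS, were not called over 4 libraries. Their difference from SHMT2 and MTHFD2 was not tested. PHGDH had a log2 fold change of -0.06 (SE 0.13), PSAT1 of 0.06 (SE 0.22) and PSPH of 0.31 (SE 0.10) over 4 libraries, with edgeR adjusted p-values of 0.758, 0.87 and 0.0784. ASNS was at 74.3, 105 and 118 CPM in NC_1, NC_2 and NC_3 and at 148, 106 and 62.7 CPM in SiCIRBP_1, SiCIRBP_2 and SiCIRBP_3. It thus had its highest and its lowest value within the SiCIRBP group, and SiCIRBP_1 was 1.24 above SiCIRBP_3 on the log2 scale, the widest such gap of the 48 genes. For ASNS the log2 fold change was -0.08 (SE 0.35, edgeR adjusted p = 0.884) over 4 libraries and 0.09 (SE 0.30, edgeR adjusted p = 0.868) over 6. PSAT1 showed the same order within the SiCIRBP group, with 480, 395 and 286 CPM in SiCIRBP_1, SiCIRBP_2 and SiCIRBP_3. Of the exon bases of ASNS, 44.6% are shared with AC079781.5 on the same strand, a gene at 19.1 to 35.8 CPM whose reads cannot be fully told apart from those of ASNS. ALDH1L2, a mitochondrial folate dehydrogenase, had a log2 fold change of -0.51 (SE 0.19, edgeR adjusted p = 0.0996) over 4 libraries and was not called.

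Among the amino acid transporters, 3 of 8 were downregulated over 4 libraries (against 9.76% of all genes) and none was upregulated (against 9.62%). The median log2 fold change was -0.37. SLC7A1 is the main cationic amino acid transporter and takes up arginine and lysine. It was at 310, 425 and 450 CPM in NC_1, NC_2 and NC_3 and at 309, 121 and 175 CPM in SiCIRBP_1, SiCIRBP_2 and SiCIRBP_3. The groups did not overlap, although NC_1 and SiCIRBP_1 were nearly level. Its log2 fold change was -0.85 (SE 0.24, edgeR adjusted p = 0.0489, DESeq2 adjusted p = 0.112) over 4 libraries and -0.97 (SE 0.32, edgeR adjusted p = 0.142, DESeq2 adjusted p = 0.0306) over 6, the largest fall of the 48 genes over 6 libraries. With RLE size factors in place of TMM, edgeR did not call it over 4 libraries either.

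SLC7A11 forms the cystine-glutamate exchanger with the shared heavy chain SLC3A2. SLC7A11, with a median of 1.58 TPM, was at 11.3, 16.4 and 17.4 CPM in NC_1, NC_2 and NC_3 and at 12.2, 7.82 and 10.2 CPM in SiCIRBP_1, SiCIRBP_2 and SiCIRBP_3. SLC3A2 was at 216, 359 and 437 CPM in the NC libraries and at 294, 319 and 246 CPM in the SiCIRBP libraries, in the same order. In SLC7A11 the groups overlapped only in that SiCIRBP_1 was above NC_1, and in SLC3A2 NC_1 was the lowest of all 6. The log2 fold change of SLC7A11 was -0.60 (SE 0.14, edgeR adjusted p = 0.0335) over 4 libraries and -0.58 (SE 0.23, edgeR adjusted p = 0.184) over 6, and that of SLC3A2 was -0.56 (SE 0.13, edgeR adjusted p = 0.0291) and -0.24 (SE 0.24, edgeR adjusted p = 0.566). SLC38A2, the sodium-coupled neutral transporter SNAT2, had a log2 fold change of -0.33 (SE 0.10) over 4 libraries. It was not called by edgeR (adjusted p = 0.059) but was called by DESeq2 (adjusted p = 0.0314).

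SLC7A5, which pairs with the same heavy chain to form the leucine exchanger LAT1, is given for its low value in SiCIRBP_2, a choice made after its values were seen. It was at 211 to 260 CPM in the NC libraries, 351 CPM in SiCIRBP_1, 253 CPM in SiCIRBP_3 and 90.2 CPM in SiCIRBP_2. Its log2 fold change over 4 libraries was 0.26 (SE 0.15, edgeR adjusted p = 0.262), and it was -0.05 over 6. Of the 31-base words of SLC7A5 transcripts, 5.6% also occur in the SMG1P3 pseudogene.

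The 13 cytosolic tRNA synthetases among the 48 genes, which load amino acids onto tRNA, and the tRNA exporter XPOT form 1 group. Of these 14 genes, 1 was downregulated over 4 libraries (7.14%, against 9.76% of all genes) and none was upregulated. The log2 fold change was below 0 in 13 of them, with a median of -0.13. AARS (ENSG00000090861, chromosome 16 from 70252295 to 70289543, minus strand), which charges alanine tRNA, was at 276, 382 and 470 CPM in NC_1, NC_2 and NC_3 and at 331, 164 and 258 CPM in SiCIRBP_1, SiCIRBP_2 and SiCIRBP_3. NC_1 lay between SiCIRBP_1 and SiCIRBP_3, and the lowest value was that of SiCIRBP_2. AARS had a log2 fold change of -0.53 (SE 0.15, edgeR adjusted p = 0.0476) over 4 libraries and -0.58 (SE 0.28, edgeR adjusted p = 0.241) over 6.

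XPOT was at 286, 317 and 325 CPM in NC_1, NC_2 and NC_3 and at 224, 236 and 272 CPM in SiCIRBP_1, SiCIRBP_2 and SiCIRBP_3. Its groups did not overlap, but its log2 fold change of -0.37 (SE 0.11, edgeR adjusted p = 0.0515) over 4 libraries was just short of the threshold, and it was -0.34 (SE 0.12, edgeR adjusted p = 0.155) over 6. IARS (isoleucine) had a log2 fold change of -0.34 (SE 0.11, edgeR adjusted p = 0.0677) and CARS (cysteine) of -0.26 (SE 0.10, edgeR adjusted p = 0.125) over 4 libraries, and edgeR called neither. The least variable of the 48 genes were the synthetases TARS (threonine), at 202 to 220 CPM, and NARS (asparagine), at 199 to 220 CPM over the 6 libraries. WARS (tryptophan), named after its values were seen, was at 378 CPM in SiCIRBP_2 and at 171 to 204 CPM in the other 5 libraries, and SARS (serine) at 293 CPM against 167 to 210 CPM.

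The cytosolic synthetases outside the 48 genes are given beside them. Of 10 such genes, 7 synthetases and 3 scaffold proteins of the multisynthetase complex, 3 were upregulated and none was downregulated, with a median log2 fold change of 0.07, where 9.62% of all genes were upregulated and 9.76% downregulated. HARS (histidine) had 89.3 to 119 CPM in the NC libraries and 137 to 156 CPM in the SiCIRBP libraries, with a log2 fold change of 0.63 (SE 0.08, edgeR adjusted p = 0.00789) over 4 libraries and 0.54 (edgeR adjusted p = 0.108) over 6. RARS (arginine) was at 71.8 to 97.4 and 102 to 117 CPM (log2 fold change 0.49, edgeR adjusted p = 0.0137) and KARS (lysine) at 217 to 225 and 260 to 266 CPM (log2 fold change 0.27, edgeR adjusted p = 0.0471). In all 3 genes every SiCIRBP library was above every NC library, an order found in 16.2% of all genes. QARS had the reverse order, found in 16.6% of all genes. It was at 218 to 241 CPM in the NC libraries and 111 to 212 CPM in the SiCIRBP libraries. Its log2 fold change over 4 libraries was -0.19 (edgeR adjusted p = 0.111), and it was not called. The difference between the synthetases outside the 48 genes and those among the 48 was not tested. Of 17 mitochondrial synthetases, none was called by edgeR over 4 libraries, and their median log2 fold change was -0.14.

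The genes that act upstream of ATF4 were not called. Of 15 genes for eIF2 kinases, eIF2, eIF2B and their cofactors, none passed the test over 4 libraries, where 9.76% of all genes were downregulated and 9.62% upregulated, and their median log2 fold change was -0.05. EIF2AK2, which encodes the double-stranded RNA kinase PKR and is itself induced by interferon, was at 185 CPM in SiCIRBP_2 and at 54.4 to 87.2 CPM in the other 5 libraries. EIF2AK3, encoding PERK, was at 18.0 to 22.3 CPM in the NC and at 11.1 to 17.6 CPM in the SiCIRBP libraries (log2 fold change -0.37, edgeR adjusted p = 0.0834 over 4 libraries). Of 15 genes of the unfolded protein response, 3 were downregulated over 4 libraries, namely XBP1 (log2 fold change -0.80, edgeR adjusted p = 0.00726), HERPUD1 (-0.60) and SEL1L (-0.34), and 2 were upregulated, SDF2L1 (0.67) and CRELD2 (0.62). Over all genes, 9.76% were downregulated and 9.62% upregulated. XBP1 had 97.4, 166 and 197 CPM in NC_1, NC_2 and NC_3 and 103 to 128 CPM in the SiCIRBP libraries, so that NC_1 was the lowest of all 6. Of the 25 interferon-stimulated genes, 1 was downregulated over 4 libraries and none upregulated.

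The transcript length that the counting assigned to a gene can be read from the ratio of its count to its TPM, and it was stable for most of these genes. For 46 of the 48 genes with at least 1 TPM in every library, the median range over the 6 libraries was 0.11 on the log2 scale, against 0.17 over 11813 genes. In 10 of the 46 (21.7%) the assigned length was longer in all 3 SiCIRBP libraries than in all 3 NC libraries, against 7.14% of all genes, and in 4 (8.7%) it was shorter, against 10.4%. The 10 were ATF5, VLDLR, STC2, SHMT2, PCK2, SLC6A9, IARS, MARS, WARS and YARS, and the 4 were CHAC1, SLC7A5, SLC1A5 and EPRS. The largest differences between the group means over 6 libraries were those of MARS (0.24), PCK2 (0.22) and EPRS (-0.22). A longer assigned length lowers TPM without a change in counts, and which transcripts were read cannot be told from gene-level values.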

How the data were processed

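RNA-seq was analysed in 3 NC and 3 SiCIRBP libraries grouped by their labels. The authors deposited an estimated count per gene and library, neither normalized nor always whole, and the authors' deposited TPM values, which also divide by an assigned transcript length. The submitters' processing notes name fastp, HISAT, RSEM and the hg38 build without versions. Strandedness and annotation are not given in the sources used here. The deposited fold changes and p-values were not used.

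Estimated counts were rounded and tested with edgeR 4.0.16 (TMM, filterByExpr, quasi-likelihood test, Benjamini-Hochberg adjustment over all genes tested) in R 4.3.3, over the 4 libraries of the paper's test and over all 6. Alternatives used DESeq2 1.42.0, limma 3.58.1 on log2(TPM + 1), RLE size factors, other filters and each library left out or added. Samples with the same replicate number did not deviate together (correlations of -0.118, 0.006 and -0.026 across genes). Exon overlaps and gene locations used GENCODE 29, in which all 48 genes were found. On simulated data edgeR recovered 47.7% of 195 genes changed by 0.75 (log2) and 95.9% of 197 changed by 1.5 over 4 libraries, and 13.6% and 95.8% over 6. The simulation gave all genes the same dispersion and set no library apart, unlike NC_1 and SiCIRBP_2 in the real data. These shares therefore check the code and do not measure the power of the real comparisons.

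The 48 genes and all lists were chosen with earlier results of these data known. Genes named with values were the ATF4 pathway's leading genes and those with the smallest p-values of each role over the 4 libraries. NUPR1, CEBPG, SLC7A5, TARS, NARS, SARS and WARS were named after their values were seen.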

Additional observations from a re-analysis of the deposited data

How the results depend on the processing

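The count of downregulated genes among the 48 over 4 libraries was 14 and that of upregulated genes 1, with 9.76% of all genes downregulated. Percentages in brackets below are the share of all genes downregulated under the same setting. Without a filter on low counts the counts were 26 and 2 (9.38%). With limma on log2(TPM + 1) or log2(TPM + 0.1) they were 9 and 0 (5.03% and 5.14%). With all 6 libraries they were 0 and 0 (0.0%), with NC_1 added 1 and 1 (3.63%) and with SiCIRBP_2 added 0 and 0 (0.0837%). At a 2-fold limit they were 2 and 1 (1.8%). With 1 library left out they ranged from 0 to 40 and from 0 to 6, where the lone library is taken to vary like the other group. RLE size factors gave 13 and 1 (9.63%, SLC7A1 lost) and a minimum of 10 counts 15 and 1 (10.8%, XPOT gained). DESeq2 gave 15 and 1 (10.4%), where 11 of the 15 were among the 14 (ATF3, DDIT4 and SLC7A1 lost). Of the 9 genes on the TPM scales, 5 (pseudocount 1) and 4 (0.1) were among the 14. Over 6 libraries the counts of 0 and 0 became 2 and 1 without a filter (1.64%) and with DESeq2 (5.09%). With 1 library left out they were 0 to 1 and 0 to 1. The counts of 1 and 1, CEBPB and ATF5, were those without SiCIRBP_2 (3.63%). On the log2(TPM + 0.1) scale the median of all genes moved by -0.101 over 4 libraries and -0.144 over 6, so that the median of the 48 genes, -0.47 and -0.35, is to be read against it.

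The replicate number as a block over 6 libraries left 0 of the 48 genes downregulated and 0 upregulated (median log2 fold change -0.17), 1 gene of all was called, and the samples share only a number. No block could be fitted over the 4 libraries, whose groups share 1 number.

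Among the 27 genes chosen by the rule for names, log2 fold changes over 4 libraries turned with all 6 libraries in ATF3 (0.75), ASNS (0.09), PHGDH (0.12) and SESN2 (0.52), with NC_1 added in ASNS (0.09) and PHGDH (0.04), with SiCIRBP_2 added in ATF3 (0.45), PHGDH (0.01) and SESN2 (0.32), and on both TPM scales in PSAT1 (-0.08). With 1 library left out, they ranged over 4 libraries from -1.12 to 0.02 in CHAC1, -0.84 to 0.40 in ASNS, -0.37 to 0.38 in PSAT1 and -0.27 to 0.11 in PHGDH. Over 6 libraries the same ranges were -0.15 to 0.13 in ATF4, -0.50 (without SiCIRBP_2) to 1.14 in ATF3, -0.65 to 0.00 in TRIB3, -0.29 to 0.21 in CHAC1, -0.22 to 0.37 in ASNS, -0.01 to 0.35 in PSAT1 and -0.14 (without SiCIRBP_2) to 0.82 in SESN2. They also turned over 6 libraries on both TPM scales in ASNS (-0.11), PSAT1 (-0.00) and PHGDH (-0.02). The cause of these changes was not tested.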
